A study of Mus musculus with 52 samples.

Results

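The genes described here are 9 members of the machinery that takes a cell through G1 phase: the cyclins Ccnd2, Ccnd3 and Ccne1, the cyclin-dependent kinases Cdk4, Cdk6 and Cdk2, and the inhibitors Cdkn1b, Cdkn2c and Cdkn2d. They were chosen by gene symbol, with earlier results of these data known, and all 9 have a row among the 14626 genes of the deposited counts. D-type cyclins pair with CDK4 and CDK6, and cyclin E pairs with CDK2; both kinds of complex phosphorylate the retinoblastoma protein, which frees E2F factors to transcribe the genes of S phase. The INK4 proteins p18 (Cdkn2c) and p19 (Cdkn2d) bind CDK4 and CDK6, and p27 (Cdkn1b) binds cyclin-CDK complexes and is best known for holding CDK2 inactive. Resting T cells are known for high p27, and antigen receptor and cytokine signals bring in the D-type cyclins before the cells divide.

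The cells were CD8+ T cells from spleens of OT-I mice, which carry a transgenic T cell receptor for an ovalbumin peptide, isolated on magnetic columns. They were profiled fresh (day 0) or after activation in 1 of 2 ways: with beads bearing anti-CD3 and anti-CD28 plus IL-2 (days 3 and 7), or with C57BL/6 splenic dendritic cells (DCs) loaded with ovalbumin peptide (days 3 and 4). Activated cells were kept in wells coated with the chemokine CCL21 and the adhesion molecule ICAM1, or in uncoated wells. The 9 groups are coated and uncoated DC day 3 (5 and 4 samples), coated and uncoated DC day 4 (5 each), coated and uncoated bead day 3 (5 and 3), coated and uncoated bead day 7 (4 and 5), and day 0 (9). The number after M in each title is used as the replicate number; nothing states that it marks separate mice. The p-values therefore rest on sample-to-sample spread, which may be technical. DC day 3 libraries carry 30 or 120 in their titles and DC day 4 libraries carry 120, which the labels do not explain. Libraries of 1 M number and coating were summed, so that 52 libraries gave 45 samples. M numbers 1 to 5 make up both bead days and DC day 3, M numbers 6 to 10 make up DC day 4, and day 0 holds M1 to M8 and M10.

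Libraries held between 382924 and 4641802 counts of 3′ tags. All 11 CD8 T cell markers were detected in every group. Levels are given as CPM, the count of a gene scaled to the size of its library. They are levels of RNA, and these counts do not measure protein. Erythroid markers summed to at most 1174 CPM in any activated sample, against 25600 to 135600 CPM in the fresh ones, and dendritic and MHC class II markers to at most 1506 CPM, against 10860 to 20230 CPM at day 0; Cd209a was at 0 in every activated group. At DC day 4 the highest sums of both marker lists came from the uncoated sample M8. In bulk samples, fewer cells of a type and less RNA per cell cannot be told apart.

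The promoters of the 5 members that differed by coating at DC day 4 are shown because these genes make up the main result. Each is the RefSeq window of 300 bases on GRCm38.p6, from 250 bases before to 50 after the start site, read on the strand of the gene. Capitals mark an E2F match (TTTCCCGC, TTTGGCGC, TTTCGCGC or TTTGCCGC on either strand) or an E-box (CACGTG); no matches overlapped.
Ccne1, chr7:38107441-38107740, minus strand: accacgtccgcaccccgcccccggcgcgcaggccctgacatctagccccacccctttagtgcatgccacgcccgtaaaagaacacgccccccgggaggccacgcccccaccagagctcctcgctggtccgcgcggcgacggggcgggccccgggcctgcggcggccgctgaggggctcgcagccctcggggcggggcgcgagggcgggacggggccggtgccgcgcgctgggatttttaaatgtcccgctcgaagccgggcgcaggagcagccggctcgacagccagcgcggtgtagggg
Cdk2, chr10:128705002-128705301, minus strand: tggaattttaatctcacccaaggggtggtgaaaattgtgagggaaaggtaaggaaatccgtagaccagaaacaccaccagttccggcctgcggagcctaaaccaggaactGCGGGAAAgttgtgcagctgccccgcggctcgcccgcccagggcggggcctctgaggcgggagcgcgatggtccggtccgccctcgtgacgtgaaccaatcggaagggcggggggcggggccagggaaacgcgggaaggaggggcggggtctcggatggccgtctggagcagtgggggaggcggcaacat
Cdk4, chr10:127063285-127063584, plus strand: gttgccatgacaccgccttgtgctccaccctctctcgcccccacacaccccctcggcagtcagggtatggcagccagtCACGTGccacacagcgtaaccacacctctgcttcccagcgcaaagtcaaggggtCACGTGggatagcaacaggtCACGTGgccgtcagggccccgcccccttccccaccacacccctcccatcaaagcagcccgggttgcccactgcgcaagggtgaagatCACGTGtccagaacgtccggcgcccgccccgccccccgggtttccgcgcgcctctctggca
Cdk6, chr5:3343643-3343942, plus strand: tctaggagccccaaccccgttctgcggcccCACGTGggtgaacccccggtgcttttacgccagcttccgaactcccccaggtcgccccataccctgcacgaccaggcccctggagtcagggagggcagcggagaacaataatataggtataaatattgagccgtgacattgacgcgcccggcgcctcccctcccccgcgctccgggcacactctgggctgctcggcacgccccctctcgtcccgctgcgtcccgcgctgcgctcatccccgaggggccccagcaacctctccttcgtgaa
Cdkn1b, chr6:134920151-134920450, plus strand: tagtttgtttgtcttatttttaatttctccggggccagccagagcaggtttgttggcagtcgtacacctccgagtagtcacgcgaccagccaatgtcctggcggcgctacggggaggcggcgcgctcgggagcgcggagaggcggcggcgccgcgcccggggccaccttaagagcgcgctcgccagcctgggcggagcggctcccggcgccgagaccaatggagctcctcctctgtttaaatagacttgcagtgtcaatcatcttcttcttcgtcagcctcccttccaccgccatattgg
Cdk4 held 4 E-boxes, starting at positions -172, -118, -98 and -11 from the start site, and only 8 of 32851 RefSeq promoter windows (0.0244%) held 4 or more. Cdk6 held 1 E-box at -220, where 7.15% of all windows held at least 1. Cdk2 held 1 E2F match, GCGGGAAA at -140, and 2.26% of all windows held one. The Ccne1 and Cdkn1b windows held none of these, nor the forkhead motif GTAAACA on either strand, which 3.65% of windows held. Among the other members, 1 Ccnd3 window held TGTTTAC at -243, 1 of the Cdkn2c windows held CACGTG at 35, and the Cdkn2d window held none; for Ccnd2, no window is shown. A match is only a run of letters in the window and was not tested as a binding site.

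By GENCODE M21 on GRCm38, Ccne1 lies on chromosome 7 at 38097984 to 38107534, Cdk6 on chromosome 5 at 3341485 to 3531008, Cdk4 on chromosome 10 at 127063534 to 127067920, Cdk2 on the same chromosome at 128697939 to 128705031, and Cdkn1b on chromosome 6 at 134920401 to 134925513. Ccnd2 lies on chromosome 6 at 127125162 to 127152193, Ccnd3 on chromosome 17 at 47505051 to 47599691, Cdkn2c on chromosome 4 at 109660876 to 109667189 and Cdkn2d on chromosome 9 at 21288410 to 21291407. The Cdk6 window shown, 3343643 to 3343942, lies inside the Cdk6 span, so its RefSeq start site differs from the first base of that span. Genes on the opposite strand overlap Ccnd2 (Gm43126 and 9330179D12Rik), Ccnd3 (Bysl), Cdk4 (Tspan31), Cdk6 (Gm17590 and Gm42435) and Cdk2 (Pmel). Whether the counting used strand is not given in the sources used here, so reads of these partners cannot be told apart.

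**Figure D1:**
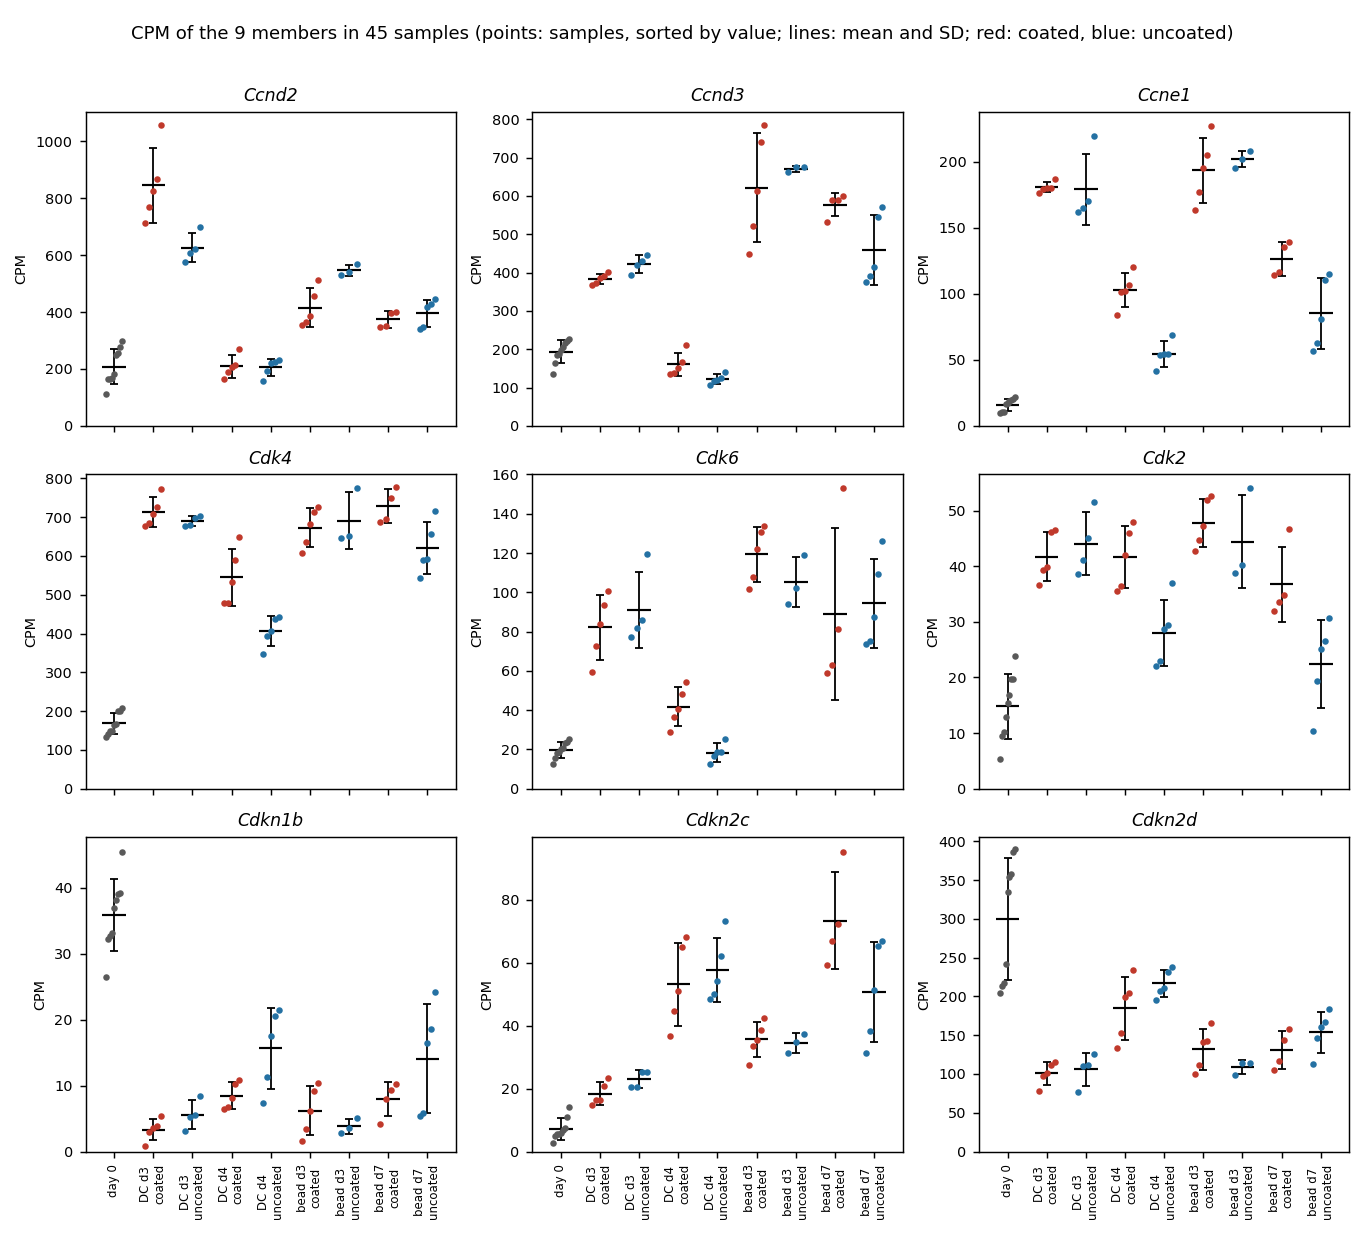
CPM of each of the 9 genes (vertical axis, from 0) in each of the 45 samples, by group; points are samples, and lines are the mean and SD. Ccne1 stood at 41.9 CPM or more in every activated sample, against 9.77 to 22.2 CPM at day 0, while Cdkn1b was highest at day 0.

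The series asks how the CCL21 and ICAM1 coating acts on DC-activated and bead-activated cells, and 5 of the 9 members differed by coating at DC day 4. There, coated cells had more RNA of cyclin E1 and of all 3 kinases, and less RNA of p27. Ccne1, Cdk2, Cdk4 and Cdk6 were higher and Cdkn1b was lower in coated cells at an adjusted p under 0.05; among the 9159 genes tested, 9.75% were higher, 9.23% lower and 19.0% called in either direction. The median log2 fold change was 0.37 over the 9 members and -0.0028 over all genes tested.

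Among the cyclins at DC day 4, Ccne1, the partner of CDK2, stood at 107, 102, 120, 101 and 83.7 CPM in coated M6 to M10, against 54.6, 53.3, 69.1, 54.05 and 41.9 CPM in uncoated M6 to M10. Every coated sample was above every uncoated one. The log2 fold change was 0.90 ± 0.14 (SE, adjusted p = 0.00156 by edgeR's quasi-likelihood test). Ccnd3, the D-type cyclin best known from lymphocytes, stood at 149.7, 168, 210.0, 138 and 136 CPM in coated cells, against 125, 107, 141.5, 118 and 119 CPM in uncoated cells. It was higher in the coated sample of all 5 M numbers, with a log2 fold change of 0.37 ± 0.14 that missed the threshold (adjusted p = 0.0641). With M number as a block, which these samples support, it passed (0.36, adjusted p = 0.0189). Ccnd2, another D-type cyclin, averaged 209 ± 39.8 CPM with the coating and 205 ± 30.8 CPM without it (SD, n = 5 each); its log2 fold change was 0.0037 ± 0.14 (adjusted p = 0.990).

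Among the kinases, Cdk6 showed the larger fold. It stood at 40.4, 54.3, 48.5, 36.4 and 29.0 CPM in coated M6 to M10, against 16.6, 18.9, 12.3, 25.3 and 18.6 CPM in uncoated M6 to M10. The groups did not overlap, and the log2 fold change was 1.16 ± 0.19 (adjusted p = 0.00181). Cdk4, the other partner of the D-type cyclins, stood at 532, 648, 589, 479.6 and 478 CPM in coated cells, against 348, 444, 438, 393.5 and 406 CPM in uncoated cells. These groups did not overlap either, with a log2 fold change of 0.40 ± 0.11 (adjusted p = 0.0218). Cdk2, the partner of cyclin E, stood at 48.0, 42.1, 35.5, 45.9 and 36.5 CPM in coated cells, against 29.5, 36.9, 23.0, 28.7 and 22.1 CPM in uncoated cells. Only the uncoated M7 reached into the coated range, and the log2 fold change was 0.53 ± 0.15 (adjusted p = 0.0258).

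Among the inhibitors, Cdkn1b was the one that differed. It stood at 6.70, 10.2, 6.46, 10.9 and 8.10 CPM in coated M6 to M10, which rest on 30, 36, 10, 24 and 12 counts. In uncoated M6 to M10 it stood at 20.6, 21.45, 7.40, 11.3 and 17.45 CPM, from 67, 93, 9, 20 and 30 counts. Only the uncoated M8 fell within the coated range, and the log2 fold change was -0.97 ± 0.26 (adjusted p = 0.018). Cdkn2d averaged 185 ± 40.8 CPM with the coating and 217 ± 17.7 CPM without it (SD, n = 5 each), and Cdkn2c averaged 53.1 ± 13.3 CPM with it and 57.6 ± 10.2 CPM without it. Their log2 fold changes were -0.25 ± 0.13 (adjusted p = 0.193) for Cdkn2d and -0.14 ± 0.17 (adjusted p = 0.609) for Cdkn2c.

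Ccne1 (0.82 to 1.00 on the log2 scale) and Cdk6 (1.05 to 1.30) were called under all 15 alternatives at DC day 4. Leaving out coated M6 left 3 members called, coated M7 3 and uncoated M6 2: Cdk4 lost its call without coated M7 or uncoated M6, Cdk2 without coated M6 or M7 or uncoated M6 or M10, and Cdkn1b without coated M6 or uncoated M6 or M7. Without both samples of M8, the same 5 members were called, with log2 fold changes of 0.94 for Ccne1, 1.05 for Cdk6, 0.42 for Cdk4, 0.54 for Cdk2 and -1.04 for Cdkn1b. In the authors' deposited table for DC day 4, the log2 fold changes were 0.91 for Ccne1, 1.16 for Cdk6, 0.41 for Cdk4 and 0.53 for Cdk2, each with an adjusted p of 0.0201 or less. Cdkn1b was at -0.94 with an adjusted p of 0.059 in the authors' deposited table.

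**Figure D2:**
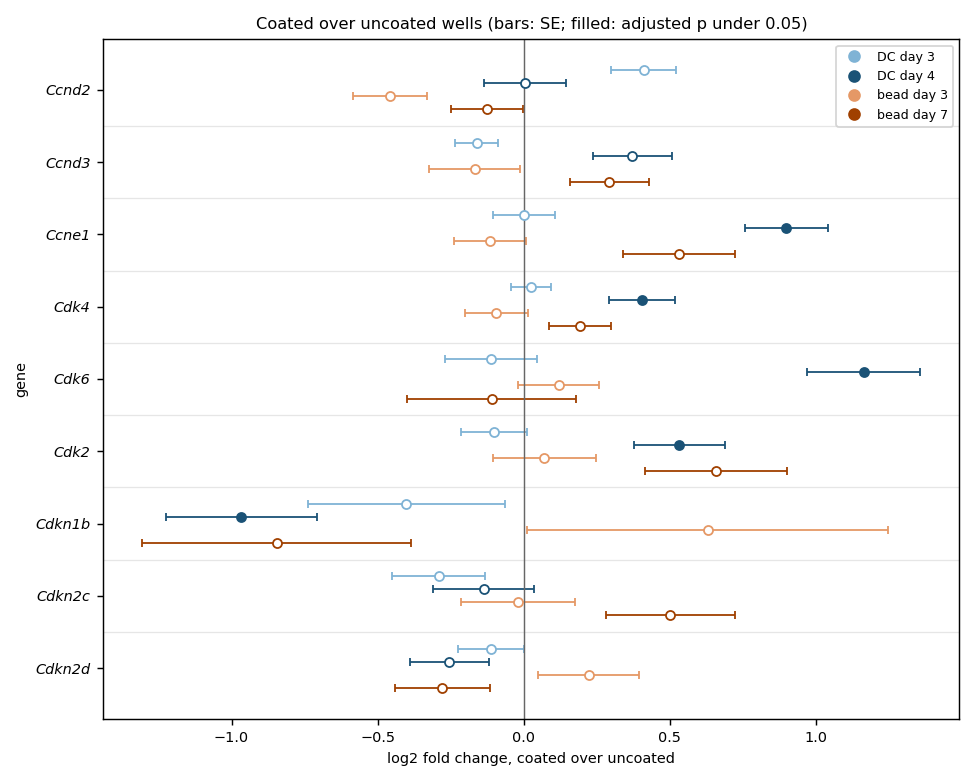
Log2 fold change of each gene, coated over uncoated wells (horizontal axis), with its SE, for DC day 3, DC day 4, bead day 3 and bead day 7; filled points have an adjusted p under 0.05. The filled points all belong to DC day 4: Ccne1, Cdk4, Cdk6 and Cdk2 right of 0 and Cdkn1b left of it.

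The other genes of the G1 machinery at DC day 4 were read from 6 lists, chosen like the members with earlier results of these data known. Of the 84 list genes tested, 34 were higher and 6 lower in coated cells. Of the other G1 cyclins and inhibitors, 3 of 4 tested were higher: Ccne2, a second cyclin E, by 1.05 ± 0.24 (adjusted p = 0.00816), Ccna2, the A-type cyclin of S phase, by 0.46 ± 0.11 (adjusted p = 0.00971), and the inhibitor p21 (Cdkn1a) by 1.61 ± 0.43 (adjusted p = 0.0354). Of the retinoblastoma and E2F family, 7 of 18 were higher and 1 lower, with a median of 0.42; E2f1, an activating E2F, was higher by 0.66 ± 0.13 (adjusted p = 0.00419) and Tfdp1, its dimer partner, by 0.64 ± 0.14 (adjusted p = 0.00702). Of 15 genes that activate CDKs or turn over p27 and cyclin E, Cdc25a, a phosphatase that activates CDK2, was higher (1.15 ± 0.21, adjusted p = 0.00312) and Fbxw7, the ubiquitin ligase subunit that targets cyclin E, was lower (-0.66 ± 0.18, adjusted p = 0.018). Of 12 upstream regulators, 4 were lower and none higher; these included the antiproliferative genes Btg2 (-0.90 ± 0.21, adjusted p = 0.00874) and Btg1 (-0.96 ± 0.26, adjusted p = 0.0183). The other two were Klf2, a factor of quiescent T cells (-1.15 ± 0.31, adjusted p = 0.0331), and Tob1 (-0.61 ± 0.21, adjusted p = 0.0492); Cdkn1a, Klf2 and Tob1 are named after their values were seen.

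E2F target genes of S phase formed the list with the highest share called: 17 of 19 tested were higher in coated cells at DC day 4 and none lower, with a median log2 fold change of 0.63. Examples are the replication licensing genes Mcm4 (0.87 ± 0.12, adjusted p = 0.00111) and Cdc6 (0.96 ± 0.14, adjusted p = 0.00126). The list summed to 5010, 5411, 4813, 4028 and 4399 CPM in coated M6 to M10, against 3104, 3419, 3077, 2711 and 2804 CPM in uncoated M6 to M10. These sums did not overlap. Of 16 genes of G2 and mitosis, 6 were higher and none lower, with a median of 0.28; Hmgb2, which encodes a chromatin protein, was higher by 0.82 ± 0.13 (adjusted p = 0.00158) and Plk1, a mitotic kinase, by 0.54 ± 0.12 (adjusted p = 0.00672). The CD8 T cell markers summed to 10060 to 14910 CPM in coated and 14050 to 18070 CPM in uncoated cells, with 4 of 11 lower, and their part in the results was not tested. Dendritic and MHC class II markers summed to 170.5 to 458 CPM in coated cells, against 216 to 1506 CPM in uncoated cells. Of these markers, 1 of 8 tested was higher and 1 lower; of B cell markers 1 of 3 was lower, and edgeR called none of 3 erythroid, 1 myeloid, 1 CD4 T cell and 7 mitochondrial genes tested, whereas DESeq2 called the myeloid gene lower.

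**Figure D3:**
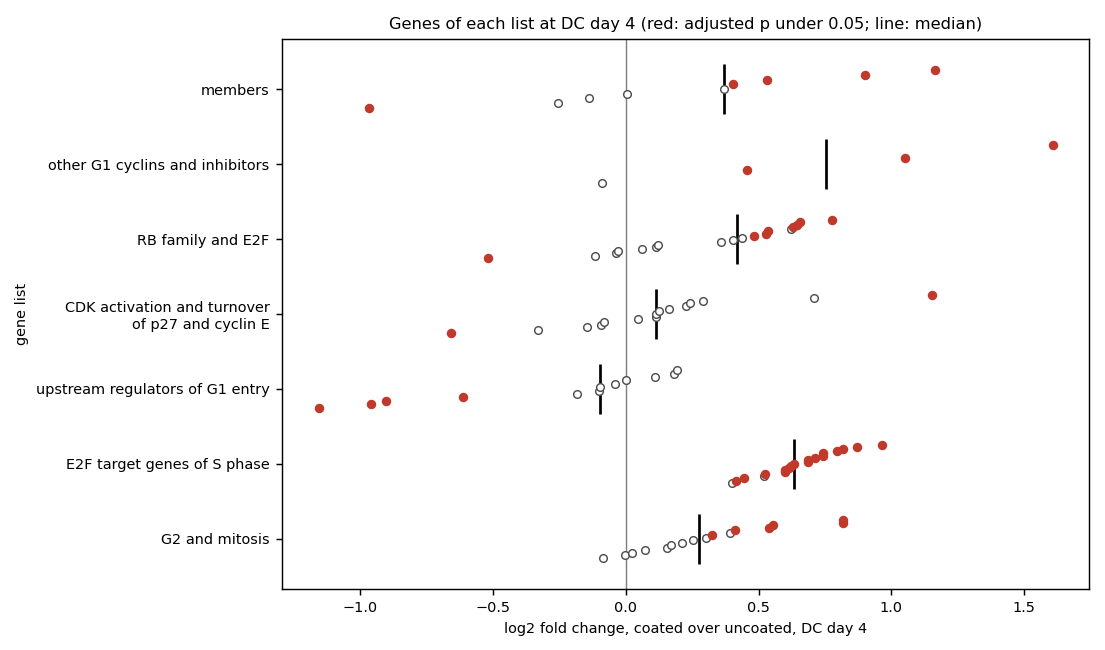
Log2 fold change, coated over uncoated, of each gene at DC day 4 (horizontal axis) for the 9 members and the 6 gene lists; red points have an adjusted p under 0.05 and the vertical line is the median of the list. The S phase targets lie right of 0 with a median of 0.63, and the upstream regulators called lie left of 0.

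In the other 3 coating comparisons, edgeR called none of the 9 members. At DC day 3, 0.410% of 10245 genes were called in either direction (0.176% higher, 0.234% lower), at bead day 3 0.100% of 8985 (0.0445% higher, 0.0556% lower), and at bead day 7 1.84% of 8696 (0.425% higher, 1.41% lower). At an unadjusted p under 0.05, 2 members passed at DC day 3, 1 at bead day 3 and 4 at bead day 7; DESeq2 called 0 members in each. Over all genes, 13.4%, 11.3% and 22.9% had an unadjusted p under 0.05 in these comparisons. A count of 0 against adjusted shares this small says little about the members.

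At day 3, Ccnd2 differed by coating in opposite directions in the 2 ways of activation. At DC day 3 it stood at 713, 1057, 825, 867 and 768 CPM in coated M1 to M5, against 575.5, 698, 621 and 609 CPM in uncoated M1, M3, M4 and M5. At bead day 3 it stood at 353, 512, 457, 363 and 386 CPM in coated M1 to M5, against 541.5, 531 and 567.7 CPM in uncoated M1, M2 and M4. The groups did not overlap in either case, higher in coated cells with DCs and lower in coated cells with beads. The DC day 3 samples sum libraries titled 30 and 120, in unequal shares with and without the coating. Within each title number the ranges overlapped. Libraries titled 120 held 643 to 1078 CPM coated and 475 to 705 CPM uncoated, and those titled 30 held 744 to 973 CPM and 663 to 793.5 CPM. The log2 fold changes were 0.41 ± 0.11 at DC day 3 (adjusted p = 0.141) and -0.46 ± 0.13 at bead day 3 (adjusted p = 0.243), so neither passed alone. At DC day 3, Ccnd2 passed without coated M1 and in the fit with M number as a block. Over the 17 alternatives there, its log2 fold change ran from 0.20 to 0.53.

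The difference between these coating effects, DC minus bead at day 3, was 0.85 ± 0.18 for Ccnd2 (adjusted p = 0.0246), and no other member was called, where 0.308% of 10075 genes were higher, 0.725% lower and 1.03% called in either direction. This call was lost with DC libraries titled 120 alone (0.97, adjusted p = 0.0835) or 30 alone (0.65, adjusted p = 0.167). It was also lost without uncoated DC day 3 M5 or any 1 of the 3 uncoated bead day 3 samples (M1, M2 or M4).

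At bead day 7, Cdk2 stood at 46.7, 33.6, 34.8 and 31.9 CPM in coated M1, M2, M3 and M5, against 30.7, 25.1, 19.3, 10.4 and 26.5 CPM in uncoated M1 to M5. The groups did not overlap, and the log2 fold change was 0.66 ± 0.24 (adjusted p = 0.141). Ccne1 averaged 126 ± 12.8 CPM with the coating (SD, n = 4) and 85.2 ± 26.8 CPM without it (SD, n = 5), a log2 fold change of 0.53 ± 0.19 (adjusted p = 0.131). Over 14 alternatives the log2 fold changes ran from 0.38 to 0.76 for Cdk2 and 0.28 to 0.66 for Ccne1. Both genes were lowest in uncoated M3 and M4. Erythroid markers summed to 485 and 818 CPM there, against 15.6 CPM or less in the other samples. B cell markers summed to 1157, 1277 and 825 CPM in uncoated M3 to M5, and 579 CPM or less elsewhere. The part of these markers was not tested. In the authors' deposited table, Ccne1 was at 0.52 (adjusted p = 0.0145) and Cdk2 at 0.62 (adjusted p = 0.0286). Of the 84 genes of the 6 lists tested at bead day 7, edgeR called 1 higher and 2 lower, DESeq2 12 higher and 4 lower, and 47 had an unadjusted p under 0.05. The genes called by edgeR were the mitotic gene Birc5 (0.58 ± 0.13, adjusted p = 0.044), Btg2 (-1.54 ± 0.21, adjusted p = 0.00435) and the kinase gene Pim2 (-0.88 ± 0.17, adjusted p = 0.0335). Neither day 3 comparison had a call by edgeR among the 84: 16 had an unadjusted p under 0.05 with DCs and 8 with beads, and DESeq2 called 2 (1 higher and 1 lower) with DCs and 0 with beads.

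The coating effect itself differed between DC day 4 and DC day 3 for Ccne1, by 0.95 ± 0.20 on the log2 scale (adjusted p = 0.0155), and for Cdk6, by 1.27 ± 0.29 (adjusted p = 0.0211). Of 9794 genes, 2.30% were higher, 1.38% lower and 3.68% called in either direction. With M number as a block, Cdk6 was at 1.08 (adjusted p = 0.0591). These tests used the DC day 3 libraries titled 120, the number that the DC day 4 libraries carry. In those day 3 libraries, Ccne1 averaged 171 ± 14.3 CPM with the coating and 181 ± 26.9 CPM without it (SD, n = 4 each). Cdk6 averaged 82.9 ± 25.6 CPM with the coating and 94.55 ± 20.1 CPM without it. Of the 84 list genes, 22 had a higher coating effect at day 4 and 1 a lower one. The days used different M numbers, so day and M number set cannot be told apart.

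Against day 0, day 3 cells in uncoated wells held more RNA of all 3 cyclins, all 3 kinases and p18, and less RNA of p27 and p19. These 7 higher and 2 lower calls were made both at DC day 3, where 75.1% of 9259 genes were called (37.0% higher, 38.1% lower), and at bead day 3, where 65.2% of 8891 were (30.2% higher, 35.0% lower). At DC day 4, 4 members were higher and 3 lower, where 55.6% of 9365 genes were called (26.4% higher, 29.2% lower). At bead day 7, 6 were higher and 2 lower, where 61.5% of 9281 were called (30.5% higher, 31.0% lower). The 4 comparisons share the day 0 samples, so they are not independent of each other.

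Ccne1 had the largest rise among the members at day 3. It stood at 165, 219, 162 and 170.3 CPM in uncoated DC day 3 M1, M3, M4 and M5 and at 195.5, 202 and 208 CPM in uncoated bead day 3 M1, M2 and M4, against 9.77 to 22.2 CPM with a median of 16.9 CPM at day 0. Its log2 fold change was 3.43 ± 0.18 with DCs (adjusted p = 9.37e-12) and 3.56 ± 0.19 with beads (adjusted p = 1.29e-10). It was still 1.69 ± 0.19 at DC day 4 (adjusted p = 4.42e-07) and 2.35 ± 0.22 at bead day 7 (adjusted p = 3.15e-08). The D-type cyclins rose less: Ccnd2 by 1.56 ± 0.18 and Ccnd3 by 1.10 ± 0.12 at DC day 3, and Ccnd2 by 1.31 ± 0.20 and Ccnd3 by 1.72 ± 0.13 at bead day 3. At DC day 4, Ccnd3 was below day 0, with 107 to 141.5 CPM in uncoated cells against 134 to 228 CPM at day 0 (log2 fold change -0.72 ± 0.12, adjusted p = 6.13e-05). Ccnd2 was not called there (-0.083 ± 0.18, adjusted p = 0.713), but against the day 0 samples of M6 to M10 alone it was lower by -0.42 (adjusted p = 0.00435).

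All 3 kinases rose at day 3. Cdk4 was at 677 to 702 CPM in uncoated DC day 3 and 646 to 775 CPM in uncoated bead day 3, against 133 to 207 CPM at day 0, with log2 fold changes of 2.01 ± 0.11 and 1.96 ± 0.13. Cdk6 rose by 2.15 ± 0.16 with DCs and 2.33 ± 0.17 with beads, and Cdk2 by 1.51 ± 0.21 and 1.44 ± 0.27. At bead day 7, Cdk4 was 1.83 ± 0.12 and Cdk6 2.20 ± 0.17 above day 0. At DC day 4, Cdk4 was still 1.21 ± 0.11 above day 0 (adjusted p = 2.6e-08), whereas Cdk6 was at 12.3 to 25.3 CPM in uncoated cells, against 12.8 to 25.3 CPM at day 0 (-0.16 ± 0.19, adjusted p = 0.470). Cdk2 was higher at DC day 4 (0.85 ± 0.23, adjusted p = 0.00364). At bead day 7 it missed the threshold (0.54 ± 0.27, adjusted p = 0.0934) and passed against the day 0 samples of M1 to M5 alone (0.88, adjusted p = 0.0266) and without uncoated bead day 7 M3 and M4 (0.81, adjusted p = 0.0157).

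The inhibitors split. Cdkn1b stood at 3.10 to 8.47 CPM in uncoated DC day 3 and 2.85 to 5.12 CPM in uncoated bead day 3 cells, against 26.4 to 45.4 CPM with a median of 36.9 CPM at day 0. The day 3 levels rest on 9 to 24 counts per sample with DCs and 2 to 6 with beads. The ranges of day 3 and day 0 did not overlap. The log2 fold change of Cdkn1b was -2.87 ± 0.23 with DCs (adjusted p = 3.55e-09) and -3.26 ± 0.30 with beads (adjusted p = 7.25e-08). It was still lower than day 0 at DC day 4 (-1.19 ± 0.20, adjusted p = 6.25e-05) and at bead day 7 (-1.39 ± 0.29, adjusted p = 0.000347). Cdkn2d was lower at day 3, by -1.51 ± 0.21 with DCs and -1.53 ± 0.24 with beads. Cdkn2c went the other way, with log2 fold changes of 1.59 ± 0.23 at DC day 3, 2.15 ± 0.27 at bead day 3, 2.91 ± 0.22 at DC day 4 (adjusted p = 1.91e-09) and 2.74 ± 0.26 at bead day 7 (adjusted p = 3.81e-08).

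The day 0 samples were themselves split by M number for 3 members. Cdkn2d stood at 204 to 242 CPM in M6, M7, M8 and M10 and at 334 to 390 CPM in M1 to M5. Ccnd2 stood at 249 to 298 CPM and 113 to 182 CPM in these sets, and Cdk4 at 167 to 207 CPM and 133 to 165 CPM, with no overlap. The call of Cdkn2d at DC day 4 (-0.53 ± 0.17, adjusted p = 0.0134) was lost against the day 0 samples of M6 to M10 alone (-0.041, adjusted p = 0.727). The erythroid and other marker genes that were high at day 0 moved with every one of these comparisons. With those marker genes left out of the fit, the calls of the 9 members were the same in all 4 comparisons. Leaving them out does not remove member reads that came from the cells carrying them, so the part of such cells was not tested. Other G1 genes moved as well: at DC day 3 the 6 lists had 62 higher and 14 lower of 83 tested, with the S phase targets higher in 19 of 19 (median 2.63, against -0.036 over all genes tested). At bead day 3 the lists had 61 higher and 14 lower of 83, at DC day 4 53 and 12 of 82, and at bead day 7 56 and 14 of 83. The median over all genes was -0.12 at bead day 3. At DC day 3, Klf2 was lower by -5.95 ± 0.15 (adjusted p = 4.86e-15) and Ccnd1, a D-type cyclin little used by lymphocytes, by -7.85 ± 0.82 (adjusted p = 4.02e-07).

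**Figure D4:**
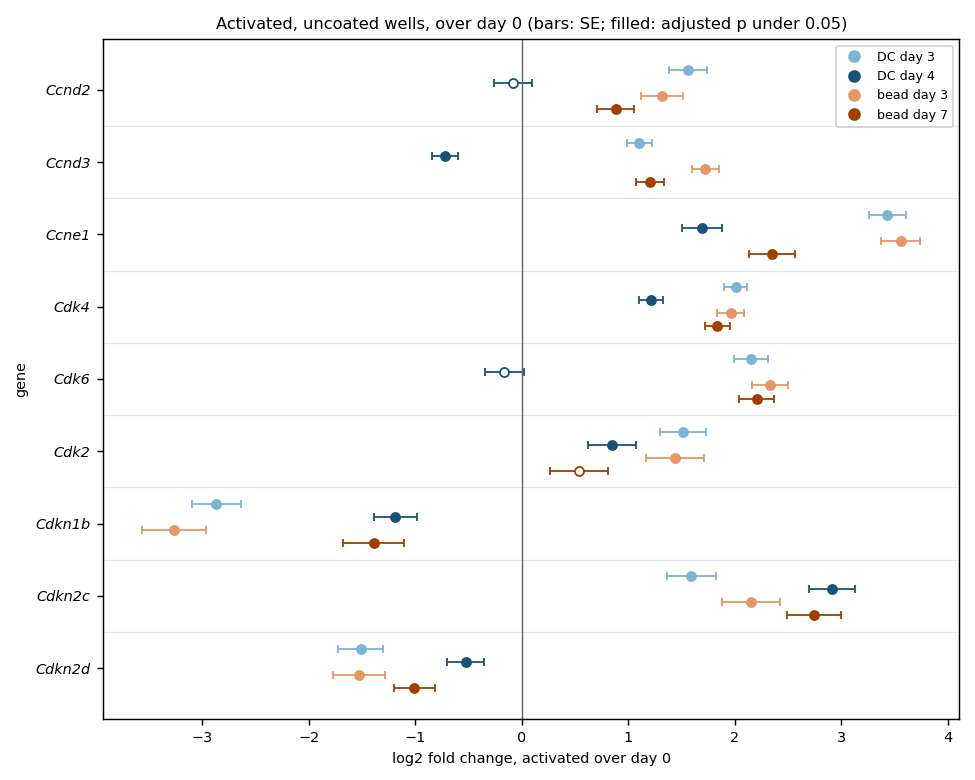
Log2 fold change of each gene in activated cells of uncoated wells over day 0 (horizontal axis), with its SE; filled points have an adjusted p under 0.05. At DC day 4, Ccnd2 and Cdk6 lie at 0 within their SE and Ccnd3 lies left of 0, while Ccne1 and Cdk4 remain right of it.

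At DC day 4 against DC day 3 (libraries titled 120), the 3 inhibitors were higher and the 6 cyclins and kinases lower in uncoated wells. There 61.6% of 9293 genes were called (30.8% higher, 30.8% lower). Cdk6 stood at 12.3 to 25.3 CPM on day 4, against 71.8 to 121 CPM on day 3, and fell by 2.33 ± 0.18 on the log2 scale (adjusted p = 4.17e-08). The cyclins fell by 1.87 ± 0.10 (Ccnd3), 1.72 ± 0.14 (Ccne1) and 1.45 ± 0.14 (Ccnd2), and the other kinases by 0.70 ± 0.10 (Cdk4) and 0.55 ± 0.15 (Cdk2). The inhibitors rose by 1.74 ± 0.33 (Cdkn1b), 1.33 ± 0.16 (Cdkn2c) and 0.95 ± 0.13 (Cdkn2d).

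In coated wells, 3 members were higher and 4 lower on day 4, where 43.9% of 8867 genes were called (22.0% higher, 21.9% lower). Ccnd2 fell by 1.96 ± 0.18, Ccnd3 by 1.39 ± 0.15, Cdk6 by 1.04 ± 0.20 and Ccne1 by 0.76 ± 0.13, while Cdkn1b rose by 1.03 ± 0.36, Cdkn2c by 1.29 ± 0.25 and Cdkn2d by 0.72 ± 0.17. Cdk4 (-0.26 ± 0.12, adjusted p = 0.0958) and Cdk2 (-0.012 ± 0.16, adjusted p = 0.958) did not pass. Since each day used its own M numbers, each day was also set against the day 0 samples of its own numbers. In uncoated wells all 9 calls remained. In coated wells, Ccne1 (-0.23, adjusted p = 0.503), Cdkn1b (0.86, adjusted p = 0.0794) and Cdkn2c (1.05, adjusted p = 0.0831) lost their calls and Cdk4 (-0.63, adjusted p = 0.00365) gained one. The call of Cdkn1b in coated wells was also lost with DESeq2 and without coated day 3 M1, M2 or M5 or coated day 4 M7 or M9.

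Over the 6 lists, 16 of 83 genes were higher and 42 lower on day 4 in uncoated wells, and 25 of 84 higher and 19 lower in coated wells. Over all genes tested, 30.8% were higher and 30.8% lower in uncoated wells, and 22.0% higher and 21.9% lower in coated wells. The share of list genes lower in coated wells was close to that over all genes. The S phase targets were lower in 16 of 19 in uncoated wells, with a median of -0.60, and in coated wells 5 were higher and 2 lower, with a median of 0.062. Myc, a driver of growth after T cell activation, was lower in both kinds of well, by -2.40 ± 0.22 in uncoated (adjusted p = 2.6e-06) and -2.47 ± 0.21 in coated wells (adjusted p = 3.23e-06). B cell markers summed to 1881 to 2602 CPM at DC day 4, against 438 to 673 CPM at DC day 3. Dendritic and MHC class II markers summed to 170.5 to 458 CPM at day 4 in coated wells, against 500.0 to 733 CPM at day 3, with 4 of 8 lower, and CD8 T cell markers were higher in 8 of 11 in coated and 9 of 11 in uncoated wells. The part of these markers in the results was not tested.

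At bead day 7 against bead day 3, edgeR called 4 members lower in uncoated wells and none higher, where 23.1% of 9024 genes were called (12.1% higher, 11.0% lower): Ccne1 (-1.25 ± 0.21, adjusted p = 0.00285), Cdk2 (-0.95 ± 0.28, adjusted p = 0.0309), Ccnd3 (-0.55 ± 0.15, adjusted p = 0.0264) and Ccnd2 (-0.46 ± 0.14, adjusted p = 0.0327). Ccne1 stood at 111, 115, 62.8, 56.4 and 81.2 CPM on day 7 in M1 to M5, against 195.5, 202 and 208 CPM on day 3 in M1, M2 and M4. M3, M4 and M5 were lower than M1 and M2 on day 7, and the same samples held more Cdkn1b, with 24.2, 18.6 and 16.45 CPM in M3 to M5 and 5.82 and 5.38 CPM in M1 and M2. Cdkn1b stood at 3.50, 2.85 and 5.12 CPM on day 3 in M1, M2 and M4, from 6, 2 and 5 counts. The days did not overlap, and its log2 fold change was 1.86 ± 0.63 (adjusted p = 0.0539). It passed with DESeq2, which called 1 member higher and 4 lower, and without day 7 M1 or M2. Myeloid markers summed to 24.5 to 53.5 CPM on day 7, against 4.09 to 12.8 CPM on day 3, with 2 of 2 tested higher. Erythroid markers summed to 485 and 818 CPM in day 7 M3 and M4 and to 12.0 CPM or less in M1, M2 and M5, and dendritic and MHC class II markers to 211 and 451 CPM in M3 and M4 and to 60.45 CPM or less in the others; their part in the results was not tested. With M number as a block, which these samples support, Ccnd2 (adjusted p = 0.0823) and Ccnd3 (adjusted p = 0.123) lost their calls. One member was called without uncoated day 7 M3 and M4 together, without day 7 M3, or without day 3 M1, M2 or M4, and 2 without day 7 M5.

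In coated wells, Cdkn2c was higher on bead day 7, at 72.1, 95.2, 66.8 and 59.25 CPM in M1, M2, M3 and M5, against 42.5, 35.55, 33.7, 27.6 and 38.6 CPM on day 3 in M1 to M5. The groups did not overlap (1.03 ± 0.17, adjusted p = 0.00267). Ccne1 was lower (-0.62 ± 0.11, adjusted p = 0.00466), and 6.47% of 8793 genes were called (3.67% higher, 2.80% lower). Over the 6 lists, 3 of 82 genes were higher and 2 lower in coated wells, and 10 of 85 higher and 18 lower in uncoated wells. Among the other INK4 genes, Cdkn2a, which encodes p16 and p19ARF, was higher on day 7 by 3.01 ± 0.23 in coated (adjusted p = 7.24e-06) and 3.46 ± 0.41 in uncoated wells (adjusted p = 0.000459). Cdkn2b, which encodes p15, was higher by 2.79 ± 0.28 in coated (adjusted p = 5.12e-05) and 3.91 ± 0.36 in uncoated wells (adjusted p = 0.000113).

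At day 3, DC-activated cells held less Ccnd3 and Cdkn2c RNA than bead-activated cells in both kinds of well, and more Ccnd2 RNA in coated wells. In uncoated wells, 8 members were tested and 2 were lower with DCs, where 24.9% of 8907 genes were called (11.1% higher, 13.8% lower), a share close to that of the members. Ccnd3 stood at 393, 447, 419 and 429.8 CPM in DC-activated M1, M3, M4 and M5, against 661, 674 and 675 CPM in bead-activated M1, M2 and M4 (-0.70 ± 0.092, adjusted p = 5.54e-05). Cdkn2c stood at 20.6, 25.4, 25.4 and 20.5 CPM in DC-activated and 37.3, 31.3 and 34.8 CPM in bead-activated cells (-0.67 ± 0.18, adjusted p = 0.0131). Neither pair of groups overlapped. Ccnd2 did not pass in uncoated wells (0.16 ± 0.10, adjusted p = 0.271). Cdkn2c lost its call without DC day 3 M5 or bead day 3 M1. Without DC day 3 M3, 4 members were called, and with DC libraries titled 30 alone, 5 were. With M number as a block, Cdk6 passed as well.

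In coated wells, 1 of 8 was higher and 4 were lower with DCs, where 39.9% of 9258 genes were called (18.9% higher, 21.0% lower). Ccnd2 was higher, at 713 to 1057 CPM with DCs against 353 to 512 CPM with beads (1.03 ± 0.12, adjusted p = 9.26e-06). Ccnd3 (-0.70 ± 0.13, adjusted p = 0.000391), Cdkn2c (-0.95 ± 0.17, adjusted p = 0.000312), Cdk6 (-0.54 ± 0.13, adjusted p = 0.00373) and Cdkn2d (-0.40 ± 0.14, adjusted p = 0.0355) were lower. With DC libraries titled 120 alone, Cdk6 (-0.42, adjusted p = 0.0788) and Cdkn2d (-0.19, adjusted p = 0.424) lost their calls. The call of Cdkn2d was also lost without coated DC M2, M3 or M4 or coated bead M1, M2 or M5. Cdkn1b was left out of both comparisons by the filter on low counts. Over the 6 lists, 8 of 84 genes were higher and 30 lower with DCs in coated wells, and 6 of 82 higher and 16 lower in uncoated wells. The inhibitor p21 (Cdkn1a) was higher with DCs in both, by 3.23 ± 0.26 in coated (adjusted p = 3.55e-06) and 1.51 ± 0.17 in uncoated wells (adjusted p = 4.97e-05). Dendritic and MHC class II markers summed to 352.5 to 733 CPM with DCs and 112 to 243.5 CPM with beads. In coated wells, erythroid markers summed to 50.65 to 248.5 CPM with DCs against 10.05 to 47.2 CPM with beads (4 of 4 higher), B cell markers to 438 to 538.5 CPM against 664 to 1176 CPM (2 of 3 lower) and CD4 T cell markers to 3.49 to 8.10 CPM against 23.4 to 41.8 CPM (1 of 2 lower). In uncoated wells, 2 of 3 B cell and 1 of 2 CD4 T cell markers were lower. The part of these markers was not tested.

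Between the DC day 3 libraries titled 120 and 30, Ccnd3 (0.27 ± 0.087, adjusted p = 0.0458) and Cdkn2d (0.28 ± 0.090, adjusted p = 0.045) were higher in those titled 120, of 8 members tested, where 12.5% of 8773 genes were called (6.78% higher, 5.71% lower). Each was higher in 6 of the 7 pairs of libraries with the same M number and coating. Both calls lay next to the threshold, and 5 of 82 list genes were higher and 2 lower. The call of Ccnd3 was lost without M1, M3, M4 or M5, and that of Cdkn2d without M1, M2 or M5. Ccnd2 was lower in the libraries titled 120 in 6 of the 7 pairs but was not called (-0.20 ± 0.082, adjusted p = 0.122). It passed, as lower, with uncoated libraries alone and without the library with the fewest counts.

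Ratios of members within a sample do not depend on the scaling of libraries; they are read here between groups only. The log2 ratio of Ccnd2 to Ccnd3 counts was 1.13 ± 0.19 in coated and 0.57 ± 0.058 in uncoated DC day 3 cells (SD, n = 5 and 4), whose ranges did not overlap, and -0.57 ± 0.21 in coated and -0.29 ± 0.048 in uncoated bead day 3 cells (SD, n = 5 and 3). The DC day 3 samples sum libraries titled 30 and 120 in unequal shares, and the ratio was not taken within 1 title number. In libraries titled 30, Ccnd2 averaged 837 CPM coated and 739 CPM uncoated, and Ccnd3 373 and 355 CPM. In those titled 120, Ccnd2 averaged 794 and 565 CPM, and Ccnd3 412 and 450 CPM. The log2 ratio of Cdkn1b to Ccne1 was -3.59 ± 0.44 in coated and -1.87 ± 0.82 in uncoated DC day 4 cells (SD, n = 5 each), and 1.18 ± 0.63 at day 0 (n = 9). Every coated sample was below every uncoated one at DC day 4. Cdk6 to Cdk4 was -3.72 ± 0.18 in coated and -4.48 ± 0.42 in uncoated DC day 4 cells. Cdkn2c to Cdkn2d was -0.84 ± 0.17 in coated and -1.64 ± 0.50 in uncoated bead day 7 cells, against -5.38 ± 0.79 at day 0.

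**Figure D5:**
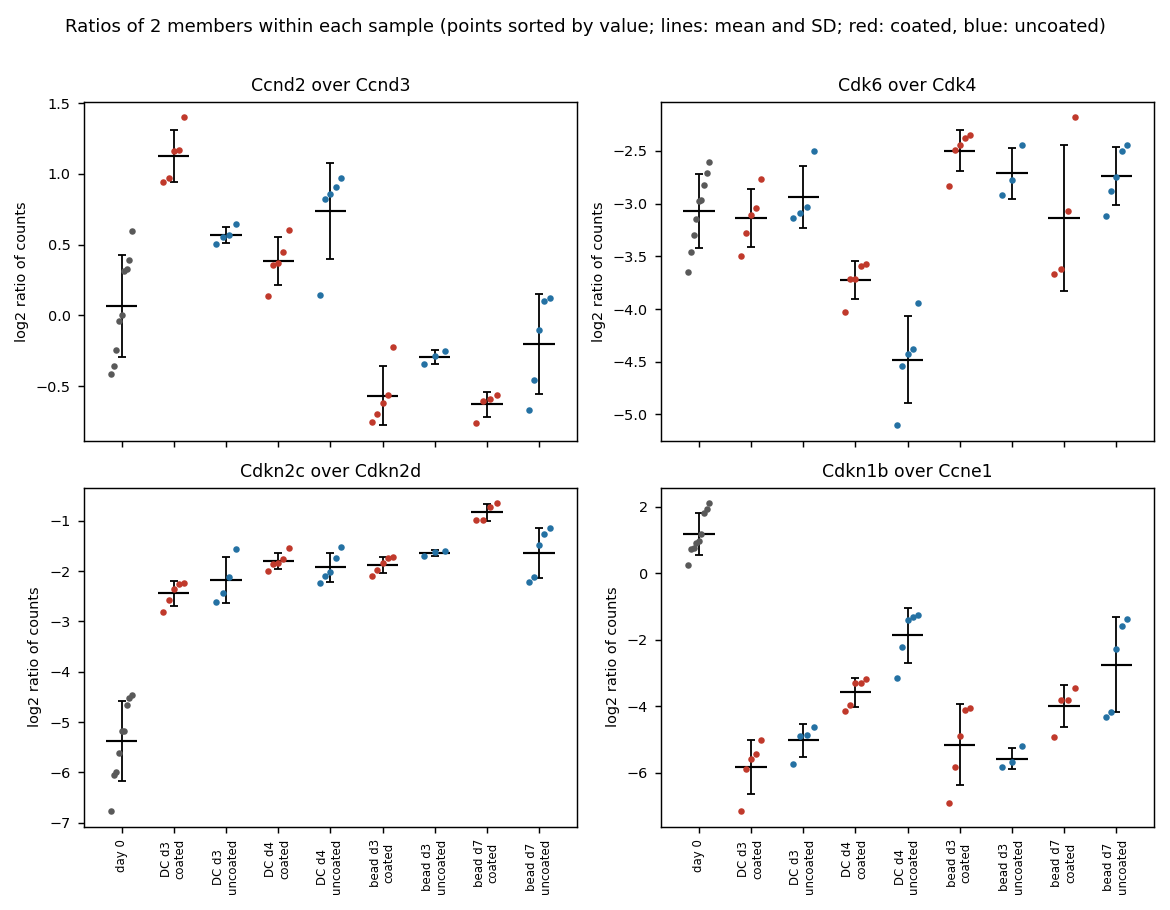
Log2 ratio of the counts of 2 members within each sample (vertical axis) for Ccnd2 over Ccnd3, Cdk6 over Cdk4, Cdkn2c over Cdkn2d and Cdkn1b over Ccne1, by group; points are samples, and lines are the mean and SD. Ccnd2 over Ccnd3 is above 0 in both DC-activated day 3 groups and below 0 in both bead-activated day 3 groups.

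Across the 9 groups, the members' mean levels spanned from 2.98-fold (Cdkn2d) to 12.6-fold (Ccne1). Ccnd2 was highest in coated DC day 3 cells at 846 CPM and lowest in uncoated DC day 4 cells at 205 CPM, and 4 of the 8 steps between neighbouring groups in its order had no overlap. Ccnd3 and Ccne1 were highest in uncoated bead day 3 cells at 670.2 and 202 CPM; their lowest groups were uncoated DC day 4 at 122 CPM and day 0 at 16.04 CPM. Cdk6 and Cdk2 were highest in coated bead day 3 cells, at 119 and 47.8 CPM, and Cdk4 in coated bead day 7 cells, at 728 CPM. Cdkn1b and Cdkn2d were highest at day 0, the first at 35.9 CPM, and lowest in coated DC day 3 cells, at 3.33 CPM for Cdkn1b and 101 CPM for Cdkn2d. Cdkn2c was highest in coated bead day 7 cells at 73.3 CPM and lowest at day 0 at 7.11 CPM. For Cdk2 and Cdkn2d every neighbouring pair of groups overlapped, and Cdkn1b and Ccnd3 had 1 step without overlap.

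The genes whose log2(CPM + 1) tracked each member most closely over the 45 samples were found by Pearson's r among 6068 genes that averaged 20 CPM or more. Ccne1 and Cdk4 shared the same closest gene, Tfdp1, at r = 0.97 and 0.98, and Cdk4 also had the replication gene Cdc45 at 0.98. Cdk6 was closest to Gzmb, which encodes the cytotoxic protease granzyme B (0.94), Cdkn1b to Klf2 (0.91) and Cdkn2d to Klf13 (0.96). Ccnd2 was closest to Cops7a (0.94), Ccnd3 to Tuba4a (0.94), Cdkn2c to Nucb1 (0.93) and Cdk2 to Hnrnpa2b1 (0.90). These values describe the 45 samples, which fall into the 9 groups and share their libraries' depth and scaling.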

How the data were processed

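Bulk 3′ RNA sequencing (MARS-seq) of OT-I CD8+ T cells was analysed. Per the submitters' processing notes, the tools were bcl2fastq, cutadapt, STAR 2.4.2a, HTSeq and DESeq2, with build mm10. The deposited table holds the authors' raw counts per gene; its log2 fold changes and adjusted p-values are the authors' own, coated over uncoated, and their design is not given in the sources used here.

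Counts of DC day 3 libraries were summed per M number and coating. Every comparison was fitted on all genes with edgeR 4.0.16 (R 4.3.3): filterByExpr (minimum count 10, minimum total 15), TMM scaling, the robust quasi-likelihood F-test and Benjamini-Hochberg adjustment, with a threshold of 0.05. CPM are counts over TMM-scaled library sizes. Comparisons with day 0 used uncoated wells. DESeq2 1.42.0, other scalings and filters, M number as a block and leaving out samples were alternatives. The reported fit of 120 against 30 already held a replicate block and a term for coating. Its alternatives dropped the block or joined M number and coating in it. Every gene of the deposited table reaches at least 6 counts in some library. The scripts were tested on simulated data.

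The 9 genes and the gene lists were chosen with earlier results of these data known. Beside the members, genes named from a list are among its called genes of lowest p in that comparison, at most 2, and for each member the text names genes most alike to it; others are marked where they occur. Same-numbered samples deviated together in every pair (correlations over 0.1) for coating at DC day 4 (0.131 to 0.343, 5 pairs) and for uncoated bead day 7 against day 3 (0.138 to 0.269, 3 pairs). They also did for uncoated DC against bead at day 3 (0.154 and 0.159, 2 pairs). The reported fold changes and p-values of these comparisons come from fits without M number as a block, which was an alternative. Of 142 pairs of libraries within a group, none was identical. Ratios used counts plus 0.5.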

Additional observations from a re-analysis of the deposited data

Results flagged for a closer look

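Among 72 combinations of gene and group with 4 to 10 samples, 2 had a sample far from the others, where chance gives about 1 in 20. Ccnd3 in coated bead day 7 M3 was the lowest of its group at 532 CPM, against 589 to 599.5 CPM in the other three. Ccne1 in uncoated DC day 3 M3 was the highest of its group at 219 CPM, against 162 to 170.3 CPM in the other three.

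The coating effect differed between 2 settings for 3 members, each by a test of the difference itself with edgeR. Between DC day 4 and DC day 3, it differed by 0.952 on the log2 scale for Ccne1 and by 1.27 for Cdk6. Between DC-activated and bead-activated cells at day 3, it differed by 0.85 for Ccnd2. This gene was higher in coated DC samples in 4 of 4 pairs of the same M number and lower in coated bead samples in 3 of 3. The DC pair of M3 set a library titled 30 against one titled 120.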

How the results depend on the processing

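Over all members, comparisons and alternatives, 1980 of 2152 log2 fold changes kept their direction and side of the threshold, 28 gained a call and 79 lost one. The other 65 changed sign; none of these was called in either fit, and their reported log2 fold changes were at most 0.259 in size. The cause was not tested. With 1 in place of 0.5 added to counts, the only alternative run for them, ratios did not move beyond their spread. Under other scalings of the libraries, 6 of 162 mean levels did. With DESeq2's test, genes called were 109 for coating at DC day 3 (42 with edgeR), 52 at bead day 3 (9), 579 at bead day 7 (160) and 346 for the difference DC minus bead (104). With M number as a block, they were 141, 99, 243 and 482 in the same order, 1254 for uncoated bead day 7 against day 3 (2084) and 131 for coated (569), and the members called were 1 for coating at DC day 3 (0), 2 (4) and 1 (2) for the uncoated and coated bead days, and 1 (2) for the difference DC day 4 minus day 3. Among all comparisons fitted with this block, no other count of members changed by over 1.5 times. With DC libraries titled 120 alone, 8 genes were called for coating at DC day 3, 2386 with 3 members for coated DC against bead (3691 with 5), and 18 with 0 members for DC minus bead; with those titled 30 alone, 22, 5 members for uncoated DC against bead (2), and 9 genes with 0 members. Without a filter 14 genes, and without both M2 samples 3 genes, were called for coating at bead day 3. Without uncoated bead day 7 M3 and M4, 37 were called for coating at bead day 7, and 1188 with 1 member for uncoated bead day 7 against day 3. For 120 against 30 (1096 genes, 2 members), coated libraries alone gave 204 genes and 0 members; DESeq2 called 1 member, and no filter, DESeq2's size factors, no replicate block, and a block of M number and coating 0 each. Leaving out 1 sample, genes called were 864 to 2052 for coating at DC day 4 (2 to 6 members), 2 to 131 at DC day 3 (0 to 1), 0 to 25 at bead day 3 and 20 to 809 at bead day 7. They were 900 to 2386 for uncoated (1 to 6 members) and 293 to 588 for coated bead day 7 against day 3, 509 to 1019 for 120 against 30 (0 to 2), 115 to 502 for DC day 4 minus day 3, and 13 to 343 for DC minus bead (0 to 1); uncoated DC against bead had 1 to 4 members. Between DC day 4 and DC day 3, no paired analysis was possible because they share no M number. Cdkn1b rests on 9 to 93 counts per sample at DC day 4, which limits its precision. Its counts were lower still at day 3, with 2 to 6 in uncoated bead samples, 1 to 20 in coated DC samples and 9 to 24 in uncoated DC samples.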
